A study of Gallus gallus with 4 samples.

Results

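Unplaced sequences are pieces of the chicken assembly that could not be assigned to a chromosome. In ChIPseq of otic-epibranchial progenitors (OEPs), embryonic ectoderm that gives rise to the inner ear and to the epibranchial placodes, they carried more trimethylation of histone H3 at lysine 27 (H3K27me3) than the assembled chromosomes and little acetylation at the same lysine (H3K27ac). Members were chosen by name alone, as all peaks on a sequence whose name is neither a number nor Z, W or mitochondrial. This gave 1851 of 95837 peaks, on 208 sequences, against 93986 peaks on 34 assembled chromosomes. Unplaced sequences without a peak of any mark are not in the lists and are not counted among the 208. The series comprises a library each for H3K27me3, trimethylation of lysine 4 (H3K4me3) and H3K27ac, and an input library without antibody, all from OEPs dissected at the stage of 8 to 9 somites (ss8-9), for which about 200 explants were collected. Strain and sex are not given in the sources used here, and the labels name no treatment or mutation. Peak lists of the 3 antibodies were analysed, and the input enters no comparison made here, apart from any use as control when the authors called peaks. Each mark has 1 library without a replicate and of unknown depth, and the lists name no genes, so the markers of the tissue were not checked. Without replicates, differences between sequences are descriptions without a test, and intervals cover counting error only.

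H3K27me3 is laid down by a Polycomb repressive complex and marks silent developmental genes and other facultatively repressed chromatin. H3K4me3 marks promoters of active genes, and H3K27ac marks active promoters and enhancers. Acetyl and trimethyl groups cannot sit on the same lysine, whereas H3K4me3 and H3K27me3 can coincide at promoters, a state called bivalent. Sequences are left unplaced in an assembly mostly because they are repeated, duplicated or rich in bases that sequence poorly. In birds such sequence is known to belong in part to the small chromosomes and to chromosome W. Sequence and annotation of GalGal6, to which the peaks refer, were not used here, so the genes and repeats under these peaks are not named.

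The 3 marks differed widely in how much of each list lay on unplaced sequences. They held 1271 of 23067 H3K27me3 peaks (5.51%, 95% Clopper-Pearson interval 5.22 to 5.81). For H3K4me3 the number was 534 of 27344 (1.95%, 1.79 to 2.12), and for H3K27ac 46 of 45426 (0.101%, 0.0741 to 0.135). Counted against each other, there were 27.6 H3K27me3 peaks per H3K27ac peak on unplaced sequences, against 0.48 on assembled chromosomes. The ratio of H3K27me3 to H3K4me3 peaks was 2.38 on unplaced sequences and 0.813 on assembled chromosomes. This ratio was not particular to unplaced sequences, as it was 2.74 on chromosome 31 and 1.86 on chromosome 16. For H3K27me3 peaks per H3K27ac peak, chromosome 31 came closest of the 34 assembled chromosomes, with 4.02. Chromosome 16 followed with 1.91 and chromosome W with 1.81, and the median chromosome had 0.376. The shares changed with the threshold: among peaks with a q-value (p-value adjusted for the false discovery rate) of 0.01 or less, 9.74% of H3K27me3 and 3.51% of H3K4me3 peaks lay on unplaced sequences. At an enrichment of at least 4-fold over background, the shares were 19.1% for H3K27me3, 1.09% for H3K4me3 and 0.359% for H3K27ac.

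Per length, the same order was seen. As span served the distance from the first base to the end of the last peak, which cannot exceed the length, so densities and covered shares on unplaced sequences are upper limits. Over a span of 12.4 Mb, unplaced sequences had 102.7 H3K27me3 peaks per Mb, against 20.8 on assembled chromosomes, 4.95 times the density. The long unplaced sequences, with names that begin with KZ, had 79.7, which is 3.84 times the density of assembled chromosomes. H3K4me3 reached 43.2 peaks per Mb on unplaced sequences and 25.6 on assembled chromosomes. Single chromosomes exceeded the unplaced H3K4me3 density, with 51.9 peaks per Mb on chromosome 27, 48.8 on 28, 46.0 on 26 and 44.2 on 23, and unplaced sequences with names that begin with KZ had 33.9. For H3K27me3 the densest assembled chromosomes, 27 (57.6 peaks per Mb) and 33 (53.5), stayed below the unplaced density. H3K27ac, in contrast, had 3.72 peaks per Mb on unplaced sequences and 43.3 on assembled chromosomes, 11.6 times fewer. Chromosome W, which is rich in repeats, had 8.51 H3K27me3, 6.02 H3K4me3 and 4.70 H3K27ac peaks per Mb. Its H3K27ac density was thus close to that of unplaced sequences, while its H3K27me3 density was the lowest of the 34 assembled chromosomes. Chromosomes 31 and 16 had 10.1 and 12.4 H3K27ac and 40.5 and 23.7 H3K27me3 peaks per Mb. Read depth on single chromosomes and the sex of the embryos are not known here, and their part in these densities was not tested.

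The set consisted of long and short sequences. The 14 sequences with names that begin with KZ were long, with a median span of 560 kb and up to 2007 kb, and together spanned 10.5 Mb. The 194 sequences with names that begin with AADN were short, with a median span of 7.65 kb and at most 50.7 kb, 1.91 Mb in all. KZ sequences held 834 H3K27me3, 355 H3K4me3 and 39 H3K27ac peaks. AADN sequences held 437, 179 and 7 peaks of the same marks. There were 79.7 H3K27me3 peaks per Mb on KZ and 228.9 on AADN sequences. The AADN density is raised by how the set was collected, and is not read as a trait of these sequences. A short sequence is listed only if it has a peak, its span ends at the last one, and 78 AADN sequences had a single H3K27me3 peak. H3K27ac was sparse on both kinds, with 3.73 peaks per Mb on KZ and 3.67 on AADN sequences.

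**Figure D1:**
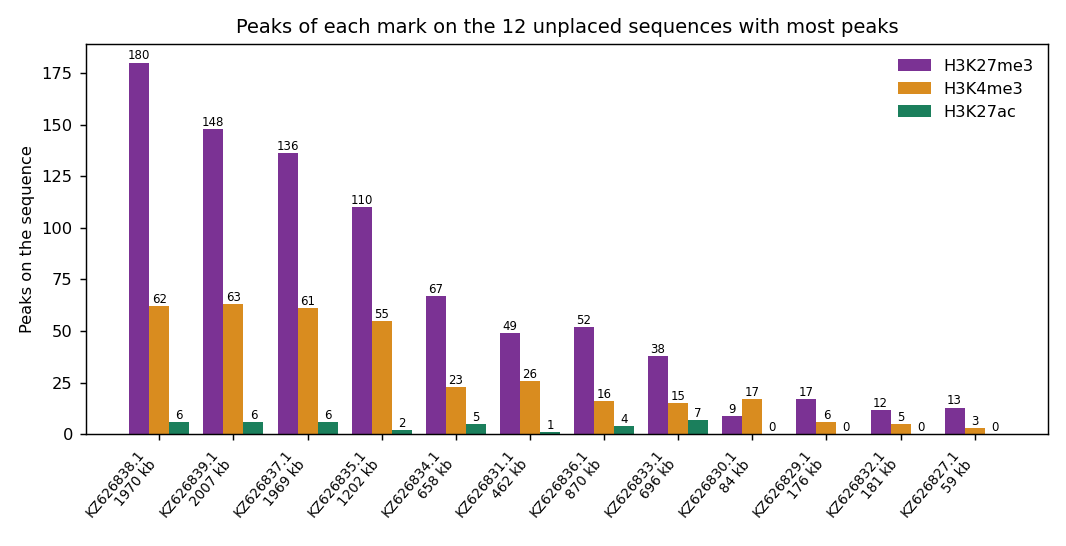
Number of peaks (y axis) of H3K27me3, H3K4me3 and H3K27ac on each of the 12 unplaced sequences with most peaks, with the span of each sequence in kb under its name. H3K27me3 has the most peaks on all of them except KZ626830.1, where 17 H3K4me3 peaks stand beside 9 H3K27me3 peaks, and H3K27ac never exceeds 7.

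Few sequences held most of the peaks. KZ626838.1 carried 180 H3K27me3, 62 H3K4me3 and 6 H3K27ac peaks over 1970 kb. KZ626839.1 followed with 148, 63 and 6 peaks over 2007 kb, and KZ626837.1 with 136, 61 and 6 peaks over 1969 kb. These 3 scaffolds of similar span thus had nearly the same number of H3K4me3 and H3K27ac peaks, while their H3K27me3 counts differed. Of the remaining named sequences, KZ626835.1 had 110 H3K27me3, 55 H3K4me3 and 2 H3K27ac peaks, KZ626834.1 67, 23 and 5, KZ626831.1 49, 26 and 1, and KZ626836.1 52, 16 and 4. KZ626833.1 had 38 H3K27me3 and 15 H3K4me3 peaks beside 7 H3K27ac peaks. This was the highest H3K27ac number on any unplaced sequence, just above the 6 on each of the 3 longer scaffolds. No H3K27ac peak was found on the sequences next in total number, KZ626830.1 (9 H3K27me3 and 17 H3K4me3 peaks) and KZ626829.1 (17 and 6). The 8 sequences with most peaks made up 79.5% of the unplaced span, 61.4% of the H3K27me3 peaks, 60.1% of the H3K4me3 peaks and 80.4% of the H3K27ac peaks. Their share of H3K27me3 and H3K4me3 peaks was thus below their share of span, and that of H3K27ac peaks was close to it.

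Ranked by each mark on its own, 5 sequences held 50.4% of the H3K27me3 peaks and 5 held 50% of the H3K4me3 peaks, and 4 sufficed to pass 50% of the H3K27ac peaks. The 10 leading sequences held 63.7% (interval 61.0 to 66.4) of H3K27me3, 64.4% (60.2 to 68.5) of H3K4me3 and 84.8% (71.1 to 93.7) of H3K27ac peaks. Beyond them came a long tail. It took 103 sequences to reach 90% of the H3K27me3 peaks, and 79 sequences had a single H3K27me3 peak.

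**Figure D2:**
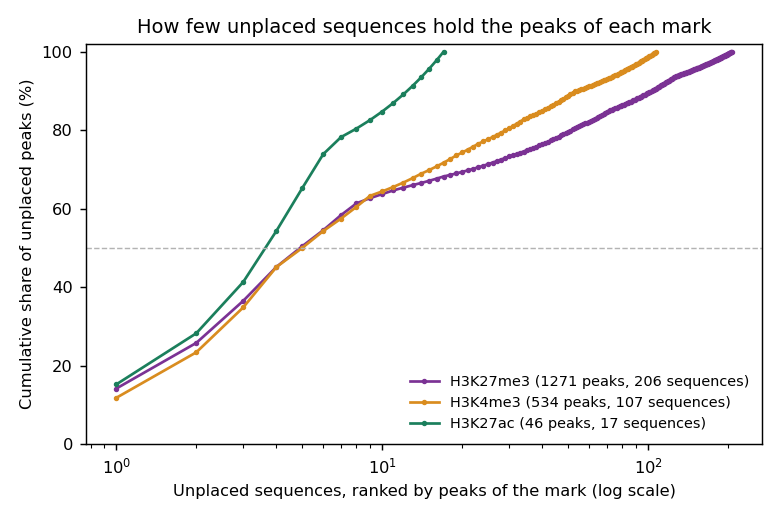
Cumulative share of unplaced peaks (%) against the number of unplaced sequences, ranked by the peaks of each mark on a log axis, with 1 line per mark and a dashed line at 50%. The H3K27me3 and H3K4me3 lines reach 50% at the fifth sequence and hold 63.7% and 64.4% at 10 sequences, after which H3K27me3 spreads over 206 sequences, H3K4me3 over 107 and H3K27ac over 17.

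Next, each sequence was classed by the marks found on it. H3K27me3 was present on 206 of the 208 sequences, a number that rests in part on how they were collected, since 99 of them are in the lists through H3K27me3 alone. It was the only mark on these 99 sequences (47.6%, interval 40.6 to 54.6), all of them with AADN names, and it was joined by H3K4me3 alone on 92 (44.2%, 37.4 to 51.3). All 3 marks were found on 14 sequences (6.73%, 3.73 to 11.0), which held 1172 of the 1851 peaks (63.3%). Their median span was 560 kb, against 9.47 kb for sequences with H3K27me3 and H3K4me3 and 6.66 kb for those with H3K27me3 alone. Short sequences were among them, however: the 4 with AADN names spanned 10.4 to 27.8 kb, and KZ626824.1 29.7 kb. A longer sequence can hold more peaks, so the combination of marks cannot be told apart from span. When a mark counted only from 2 peaks on a sequence, 42 sequences had H3K27me3 with H3K4me3 and 7 had all 3 marks. H3K4me3 occurred on 107 sequences and lacked H3K27me3 on only 1 of these, AADN05001489.1, which had 1 H3K4me3 and 1 H3K27ac peak. The other sequence free of H3K27me3, AADN05001495.1, had a single H3K27ac peak.

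H3K27me3 peaks on unplaced sequences were also wider than those elsewhere. Their median width was 823 bp (quartiles 397 and 1696), against 483 bp (290 and 939) on assembled chromosomes. H3K4me3 peaks had a median of 578 bp on unplaced sequences and 440 bp on assembled chromosomes. For H3K27ac the median was 551 bp on unplaced sequences (46 peaks, interval 355 to 901) and 756 bp on assembled chromosomes. As this interval includes the assembled median, a difference in H3K27ac width was not shown. The H3K27ac median was 718 bp for the 39 peaks on KZ sequences and 373 bp for the 7 on AADN sequences. On chromosomes 31 and 16, the medians were 645 and 597 bp for H3K27me3 and 673 and 609 bp for H3K4me3. Greater H3K4me3 width was thus not particular to unplaced sequences. H3K27ac medians were 520 bp on chromosome W, 811.5 bp on chromosome 31 and 1039 bp on chromosome 16. In total, H3K27me3 covered 13.5% of the unplaced span and 1.69% of that of assembled chromosomes. H3K4me3 covered 3.55% of the unplaced and 1.63% of the assembled span, and H3K27ac 0.314% of the unplaced and 4.55% of the assembled span. Peaks of at least 4-fold enrichment alone covered less of the unplaced span, 5.33% for H3K27me3, 0.119% for H3K4me3 and 0.021% for H3K27ac.

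Cover by H3K27me3 varied with the kind of sequence. It was 10.8% over all KZ sequences and 28.6% over all AADN sequences. Among the 8 sequences with most peaks it ranged from 5.59% on KZ626836.1 to 17.3% on KZ626831.1, and 6 of them exceeded 9.17%, the cover of chromosome 27 and the highest of the assembled chromosomes. Over the whole set, 175 of 208 sequences lay above that chromosome. As a sequence is counted only if it has a peak, and its span ends at the last one, this number is a description of the listed sequences and not of all unplaced ones. KZ626830.1 stood out among the KZ sequences, with H3K27me3 over 57.7% and H3K4me3 over 28.4% of its 84.3 kb. At least 50% of the span was covered on 54 AADN sequences. AADN05001163.1, an extreme case named after its value was seen, had 1 H3K27me3 peak over its whole span of 1920 bp and 1 H3K4me3 peak over 95.6% of it. On 41 of the 192 AADN sequences with H3K27me3 (21.4%, 15.8 to 27.8), the first peak began within 100 bp of the first base, where a peak cannot extend further.

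**Figure D3:**
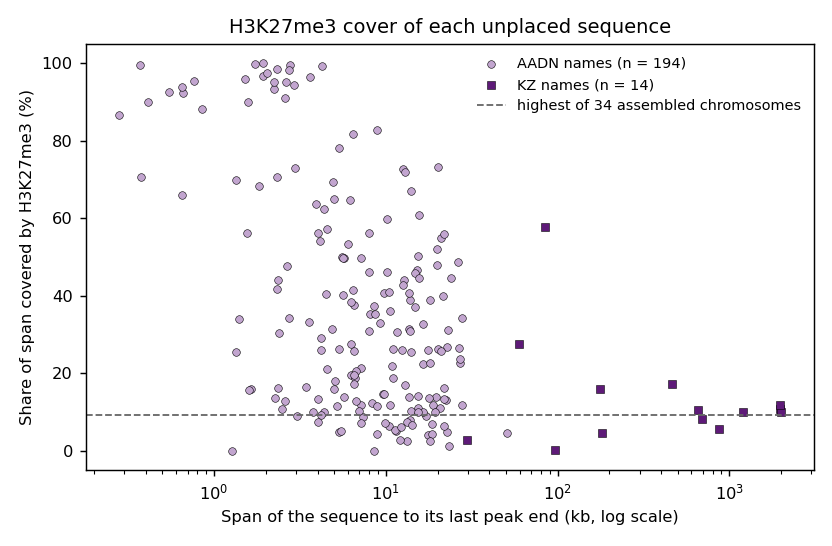
Share of the span covered by H3K27me3 peaks (%) against span in kb on a log axis, with 1 point per unplaced sequence, circles for AADN and squares for KZ names, and a dashed line at 9.17%, the highest of the 34 assembled chromosomes. Of the 208 points, 175 lie above the line, and cover near 100% is found on spans of a few kb.

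Neighbouring H3K27me3 peaks lay close together. The median gap between consecutive peaks was 3.82 kb on unplaced sequences and 24.5 kb on assembled chromosomes. It was 4.63 kb on KZ and 2.57 kb on AADN sequences, whose short spans limit how long a gap can be. For H3K27ac the gaps were longer on unplaced sequences, with a median of 38.0 kb, against 8.10 kb on assembled chromosomes. The unplaced H3K27ac median rests on 29 gaps, all on KZ sequences. Joined across gaps of up to 3 kb, H3K27me3 formed 50 runs of at least 10 kb among 821 on unplaced sequences (6.09%, 4.55 to 7.95), against 246 of 18656 on assembled chromosomes (1.32%, 1.16 to 1.49). The longest unplaced run spanned 35.1 kb on KZ626839.1 at 750634 to 785735, where 7 H3K27me3 peaks covered 78.8% and 9 H3K4me3 peaks 27.3%. It ranked 17 among all runs, and the longest run of an assembled chromosome measured 174.6 kb. The next were on KZ626831.1 at 39002 to 72602 (33.6 kb), KZ626834.1 at 196491 to 223118 (26.6 kb) and KZ626830.1 at 12945 to 37697 (24.8 kb), where H3K4me3 covered 21.0%, 17.4% and 50.1%. None of these 4 runs met an H3K27ac peak.

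The widest single H3K27me3 peak lay outside the runs named above, on KZ626839.1 at 731867 to 742917 (11051 bp, fold enrichment 4.88). The next ones lay inside them, on KZ626839.1 at 759173 to 768450 (9278 bp, 4.95) and on KZ626831.1 at 63467 to 72602 (9136 bp, 3.88). Each of the peaks on KZ626839.1 overlapped 3 H3K4me3 peaks, and that on KZ626831.1 overlapped 1. Fold enrichment is the caller's ratio of signal over local background, averaged along the peak. The widest H3K4me3 peaks differed in their company. That on KZ626839.1 at 506283 to 511433 (5151 bp, 3.78) had no H3K27me3 and overlapped the widest H3K27ac peak of the set, at 506681 to 511417 (4737 bp, 3.24). The following ones, on AADN05001483.1 at 10641 to 15015 (4375 bp, 1.73) and on KZ626839.1 at 750638 to 754885 (4248 bp, 2.66), each lay on an H3K27me3 peak and carried no H3K27ac.

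Enrichment of H3K27me3 was higher over the set as a whole, most of all on the short sequences. The median fold was 3.35 on unplaced sequences (quartiles 2.63 and 4.56) and 2.86 on assembled chromosomes (2.62 and 3.25). It was 4.35 on AADN and 3.01 on KZ sequences, the latter below the 3.06 of chromosome 16. Among the 8 sequences with most peaks it ranged from 2.80 to 4.42. On KZ626838.1, KZ626839.1 and KZ626837.1, with 2.85, 2.81 and 2.80, it did not exceed the assembled median. A fold of at least 4 was reached by 450 of the 1271 peaks (35.4%, 32.8 to 38.1), against 10.2% of the whole H3K27me3 list. The short sequences led, with 58.4% of the H3K27me3 peaks on AADN and 23.4% on KZ sequences at that level. On chromosome 16 the share was 19.4% (10.8 to 30.9) and on chromosome 31 14.5%. H3K4me3 took the opposite course. Its median fold was 2.49 on unplaced sequences and 2.96 on assembled chromosomes, and 23 of 534 peaks (4.31%, 2.75 to 6.39) reached a fold of 4, against 7.68% of the whole list. On chromosomes 31, W and 16 this H3K4me3 share was 3.30%, 4.88% and 11.1%, and the median fold 2.69, 2.94 and 2.90. For H3K27ac, 5 of 46 unplaced peaks (10.9%, 3.62 to 23.6) reached it, against 3.07% of the whole list. On chromosomes 31, W and 16 the H3K27ac share was 6.45%, 15.6% and 5.71%. Neither a low H3K4me3 share nor a high H3K27ac share was thus particular to unplaced sequences.

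Among the 100 H3K27me3 peaks of the highest fold in the whole list, 31 lay on unplaced sequences (interval 22.1 to 41.0%), spread over 23 of them. The whole H3K27me3 list had 5.51% of its peaks there. For H3K4me3 the number was 2 of 100, near the 1.95% of its whole list. For H3K27ac it was 0 of 100, with an exact interval up to 3.62% that includes the 0.101% of its whole list. The first 3 of the H3K27me3 list were AADN05001348.1 at 11818 to 12156 (fold 21.6), AADN05001291.1 at 48879 to 49386 (19.7) and AADN05001220.1 at 3486 to 3796 (15.3). All 3 were narrow, 311 to 508 bp, and only that on AADN05001348.1 overlapped H3K4me3. For H3K4me3, the leading unplaced peaks were KZ626835.1 at 686469 to 686827 (11.0, rank 3 of its whole list), KZ626832.1 at 174759 to 175095 (6.75) and KZ626838.1 at 1433071 to 1433946 (5.51), each on an H3K27me3 peak. The strongest H3K27ac peaks were KZ626835.1 at 686546 to 686821 (5.12), KZ626836.1 at 284954 to 285213 (5.01) and KZ626833.1 at 161791 to 162258 (4.54), of which only that on KZ626835.1 overlapped the other marks.

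Unplaced peaks also differed in their q-values. The q-value was 0.01 or less for 89.7% of H3K27me3 peaks on unplaced sequences and 48.5% on assembled chromosomes. For H3K4me3, whose folds were lower on unplaced sequences, the shares were nevertheless 77.2% on unplaced sequences and 42.3% on assembled chromosomes. At folds of 2 to 2.5, the median −log10 q-value of H3K4me3 peaks was 3.56 on unplaced sequences and 1.40 on assembled chromosomes, and that of H3K27me3 peaks 3.99 on unplaced sequences and 1.40 on assembled chromosomes. Peaks with a fold under 2 made up 22.1% of H3K4me3 peaks on unplaced sequences and 1.17% on assembled chromosomes. High shares of both kinds were also found on single chromosomes. On chromosomes 16, 31 and W, 75%, 65.9% and 58.5% of H3K4me3 peaks had a q-value of 0.01 or less, and 16.7%, 14.3% and 17.1% had a fold under 2. For H3K27me3, a q-value of 0.01 or less was found for 89.7% of unplaced peaks (87.9 to 91.3) and for 77.6% of those on chromosome 16 (65.8 to 86.9). At a given fold, q-values depend on the number of reads, which the lists do not hold. How reads that fit several places were treated is not given in the sources used here.

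**Figure D4:**
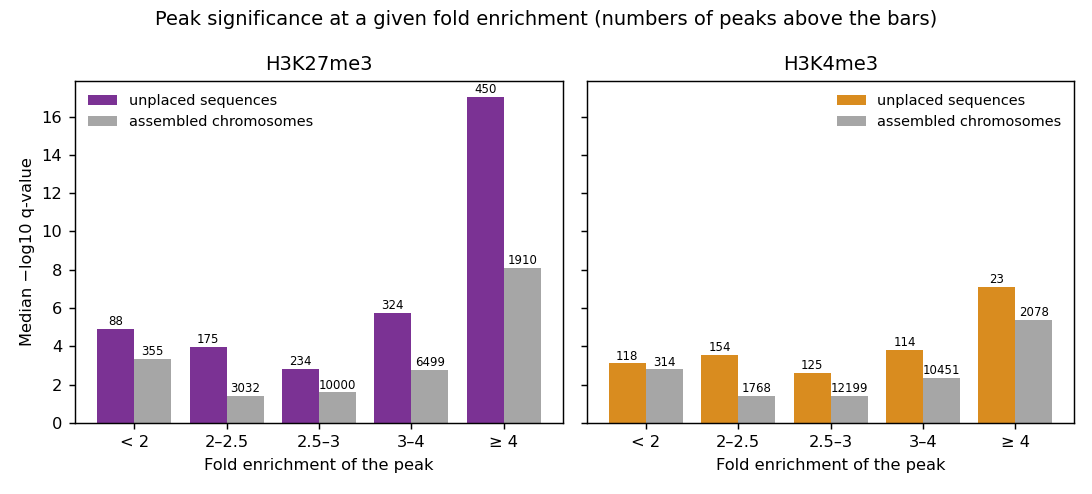
Median −log10 q-value (y axis) of H3K27me3 peaks (left) and H3K4me3 peaks (right) in 5 ranges of fold enrichment, for unplaced sequences (coloured) and assembled chromosomes (grey), with the number of peaks above each bar. In every range the unplaced peaks have the higher median, for example 17.0 on unplaced sequences and 8.09 on assembled chromosomes for H3K27me3 at a fold of at least 4.

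The closest relation between marks was that of H3K4me3 to H3K27me3. Of the 534 unplaced H3K4me3 peaks, 500 (93.6%, 91.2 to 95.6) overlapped H3K27me3 by at least 1 bp, against 22.0% of the whole H3K4me3 list. On assembled chromosomes the share was 20.6%. In bases, 91.9% of the H3K4me3 cover lay inside H3K27me3 peaks on unplaced sequences and 18.5% on assembled chromosomes. On AADN sequences 178 of 179 H3K4me3 peaks overlapped H3K27me3, and on KZ sequences 322 of 355 (90.7%, 87.2 to 93.5). Among the 8 sequences with most peaks the share was lowest on KZ626833.1, with 10 of 15, and reached 26 of 26 on KZ626831.1. All 17 H3K4me3 peaks of KZ626830.1 overlapped one of its 9 H3K27me3 peaks.

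All 34 assembled chromosomes had lower shares. Chromosome 31 had the highest, 60.4% (49.6 to 70.5). Chromosome 27, which had the highest cover by H3K27me3, reached 50.8%, chromosome 16 reached 41.7% (25.5 to 59.2) and chromosome W 39.0% (24.2 to 55.5). Cover by H3K27me3 itself was 13.5% on unplaced sequences, 4.47% on chromosome 31, 9.17% on chromosome 27 and 0.855% on chromosome W, and its part in the share of overlaps was not tested. The share was higher on unplaced sequences at every level of H3K4me3 enrichment. At folds of 2.5 to 3, 91.2% of unplaced H3K4me3 peaks overlapped H3K27me3, against 16.9% on assembled chromosomes. The difference was smallest at a fold under 2, with 96.6% (91.5 to 99.1) on unplaced sequences and 79.9% (75.1 to 84.2) on assembled chromosomes. The 314 H3K4me3 peaks with a fold under 2 on assembled chromosomes thus also lay mostly on H3K27me3. This did not extend to folds of 2 to 2.5, where the shares were 96.8% on unplaced sequences and 28.7% on assembled chromosomes. When both lists were limited to q-values of 0.01 or less, the shares were 94.7% on unplaced sequences and 20.7% on assembled chromosomes. With a fold of at least 4 in both, they were 82.6% on unplaced sequences, from 19 of 23 peaks, and 12.6% on assembled chromosomes.

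**Figure D5:**
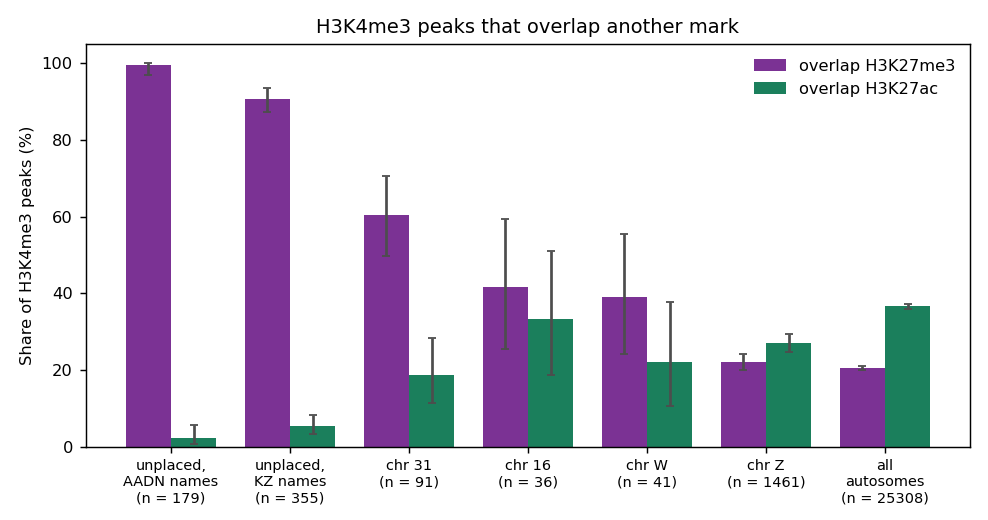
Share of H3K4me3 peaks (%) that overlap H3K27me3 (purple) or H3K27ac (green) on unplaced sequences with AADN and KZ names, on chromosomes 31, 16, W and Z and on all autosomes, with exact 95% binomial intervals as error bars and the number of peaks below each pair. Overlap with H3K27me3 is above 90% on both kinds of unplaced sequence and 20.4% on autosomes, while that with H3K27ac is 2.23% and 5.35% on AADN and KZ sequences and 36.6% on autosomes.

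The reverse relation was looser. Of the unplaced H3K27me3 peaks, 446 (35.1%, 32.5 to 37.8) overlapped H3K4me3, against 24.5% of the whole H3K27me3 list. Those that did were wider, with a median of 1504 bp against 565 bp for the other 825, and had a median fold of 4.07 against 3.12. The part of width in this relation was not tested. Grouped by H3K27me3 fold, the excess was not constant. At a fold of at least 4, 51.1% of unplaced and 54.8% of assembled H3K27me3 peaks overlapped H3K4me3, and at 3 to 4, 26.9% and 25.9%. At 2.5 to 3 the shares were 24.8% and 18.2%, at 2 to 2.5 31.4% and 18.3%, and under 2 18.2% and 29.9%. The share over all unplaced H3K27me3 peaks depended on the threshold. With a fold of at least 4 in both lists it was 4.22%, since only 23 H3K4me3 peaks were then left. Overlap with H3K27ac was found for 15 unplaced H3K27me3 peaks (1.18%, 0.662 to 1.94), against 18.5% of the whole list. The share was similarly low on chromosome 16, with 1 of 67 peaks (1.49%), and on chromosome 31, with 4 of 249 (1.61%), and was 5.17% on chromosome W. Of unplaced H3K4me3 peaks, 23 (4.31%, 2.75 to 6.39) overlapped H3K27ac, against 35.4% of the whole list, 18.7% on chromosome 31, 22.0% on chromosome W and 33.3% on chromosome 16.

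Most H3K27ac overlaps of H3K4me3, 14 of 23, fell on the few unplaced H3K4me3 peaks without H3K27me3. Only 34 H3K4me3 peaks lacked H3K27me3, on 9 sequences, led by KZ626838.1 with 8, KZ626839.1 with 7 and KZ626833.1 and KZ626837.1 with 5 each. Of these 34 peaks, 14 (41.2%, 24.6 to 59.3) overlapped H3K27ac, whereas 9 of the 500 H3K4me3 peaks on H3K27me3 did (1.80%, 0.826 to 3.39). On assembled chromosomes, 37.8% of H3K4me3 peaks without and 29.4% of those with H3K27me3 overlapped H3K27ac. The share with H3K27ac among H3K4me3 peaks free of H3K27me3 was thus 41.2% on unplaced sequences and 37.8% on assembled chromosomes, within the interval of the smaller set.

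The 46 H3K27ac peaks lay on 17 sequences, 39 of them on KZ and 7 on AADN sequences. H3K4me3 was found at 23 (50%, 34.9 to 65.1), against 21.1% of the whole H3K27ac list, and H3K27me3 at 15 (32.6%, 19.5 to 48.0), against 9.38%. H3K27me3 was found at 10 of the 39 H3K27ac peaks on KZ sequences (25.6%) and at 5 of the 7 on AADN sequences. Its cover was 13.5% of the unplaced and 1.69% of the assembled span, and the part of cover in these shares was not tested. Split by both marks, 14 of the 46 peaks carried H3K4me3 only, 6 H3K27me3 only, 9 both and 17 neither. Peaks with H3K4me3 only were the widest, with a median of 978 bp, all on KZ sequences, whereas those with both marks had a median of 373 bp and those with H3K27me3 only 293 bp. Some H3K27ac peaks lay in groups. With peaks joined across up to 150 kb, a limit set with the peaks in view, KZ626833.1 had 7 H3K27ac peaks within 195 kb at 9892 to 205172, of which 6 lay at 144585 to 205172, and KZ626837.1 had 6 within 101 kb at 1711728 to 1812903. H3K27me3 covered 0.661% of the window on KZ626837.1, from 2 peaks, against 11.9% of the whole sequence. On KZ626833.1, 15 H3K27me3 peaks covered 13.9% of the window, against 8.26% of the whole sequence. The other 3 windows with at least 3 H3K27ac peaks had less H3K27me3 than their whole sequences, with 2.85% against 10.6% on KZ626834.1, 5.58% against 10.8% on KZ626838.1 and 9.31% against 10.04% on KZ626839.1.

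At 9 sites an H3K27ac peak overlapped both other marks. On KZ626835.1 the peaks nearly coincided, at 686450 to 686823 for H3K27me3 (fold 13.2), 686469 to 686827 for H3K4me3 (11.0) and 686546 to 686821 for H3K27ac (5.12). This single site was the strongest unplaced peak of both H3K4me3 and H3K27ac. On AADN05001329.1 an H3K27me3 peak at 20177 to 21443 (fold 14.1) overlapped an H3K4me3 peak at 20238 to 21346 (4.56) and an H3K27ac peak at 20237 to 20870 (4.05). The H3K27ac fold was the lowest of the 3 at all 9 sites and the H3K27me3 fold the highest at 8, the exception being the H3K27ac peak on KZ626838.1 at 191341 to 192425 (2.99 for H3K27me3, 3.02 for H3K4me3 and 2.53 for H3K27ac). Fold is relative to the background that the caller set for each list, and whether this came from the input is not given. These orders therefore compare libraries as well as marks. Signal of the input library at these sites was not analysed here.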

How the data were processed

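The authors sonicated cross-linked chromatin of OEPs, immunoprecipitated it with a protocol for few cells, enriched the libraries by PCR and sequenced read pairs. Per the study's methods, reads went through the default NF-core ChIPseq pipeline and were aligned with the Burrows–Wheeler aligner to GalGal6, and broad peaks were called with MACS2 per library below a false discovery rate of 0.1. Trim Galore is named in the submitters' processing notes. Whether the input served as control is not given in the sources used here. The fold enrichment in the deposited lists is a linear ratio over local background, as a mean over the peak. The authors' −log10 p-value and −log10 q-value are means over the peak too, and the deposited score repeats the q-value and was not used. The lists hold no read counts, so depth is unknown.

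From these lists, peaks on unplaced sequences were taken by name. Coordinates are 1-based on GalGal6, each start being 1 above that in the list. Cover is the union of peaks over the span, and overlap counts from 1 bp. Shares carry exact 95% Clopper-Pearson intervals. No test was made, as each mark has 1 library. Interval arithmetic was tested on simulated data. Python 3.11.15, pandas 2.3.3, numpy 2.4.6, scipy 1.17.1 and matplotlib 3.10.9 were used. Sites were named by rule: the 10 unplaced sequences with most peaks, the 3 with most peaks of each mark, the leading sequences with all 3 marks, and the 3 widest and 3 most enriched peaks of each mark. Runs across 3 kb, sites with all marks and the groups of H3K27ac peaks were added once the peaks had been viewed. The set and all measures were chosen with earlier results of these data known. A gene table of another assembly was not used.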

Additional observations from a re-analysis of the deposited data

How the results depend on the processing

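Of 114 values recomputed under alternatives, 80 stayed within their counting interval (shares and medians) or within 1.5 times (cover and numbers of sequences). All values did so when peaks within 1 kb were merged, when overlap needed 50% of the shorter peak, when a gap of up to 1 kb counted as overlap, and for cover on sequences with a span of at least 50 kb, an alternative added after seeing the data. The other 34 moved. With a q-value of at most 0.01, unplaced sequences held 9.74% of H3K27me3 and 3.51% of H3K4me3 peaks, the median H3K27me3 fold was 3.61, the 10 leading sequences held 58.5% of H3K4me3 peaks, and 30.7% of H3K27me3 peaks overlapped H3K4me3. With a fold of at least 4, lists shrank by construction: the shares of the lists were 19.1% (H3K27me3), 1.09% (H3K4me3) and 0.359% (H3K27ac), cover 5.33%, 0.119% and 0.021%, median folds 5.03, 4.33 and 4.54, median widths 907 bp for H3K27me3 and 519 bp for H3K4me3, and the shares of the 10 leading sequences 41.1%, 73.9% and 100%. Overlap was then 4.22% for H3K27me3 with H3K4me3, 0.444% for H3K27me3 with H3K27ac, 82.6% for H3K4me3 with H3K27me3 and 13.0% for H3K4me3 with H3K27ac, and 12 sequences had H3K27me3 with H3K4me3 and 3 all marks. H3K27me3 was then the only mark on 133 of 150 sequences, against 99 of 208. Its share thus rose, although the number of sequences stayed within 1.5 times and was not counted as moved. Without KZ626838.1, unplaced sequences held 4.77% of H3K27me3 and 1.73% of H3K4me3 peaks, the median H3K27me3 fold was 3.53, and its 10 leading sequences held 58.8%. When a mark counted from 2 peaks, 42 sequences had H3K27me3 with H3K4me3 and 7 all marks. With 5 leading sequences in place of 10, the shares were 50.4%, 50% and 65.2%. Except where a list shrinks or fewer sequences are counted, the cause was not tested.

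No paired analysis was possible because each mark has 1 library. Cover relative to the full length of each sequence, as planned, was not run, as no reference of the same build was used here. Depth is unknown, which limits how far peak numbers of different marks can be compared.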
